A study of Mus musculus with 42 samples.

Results

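Zscan5b and 6 further Zscan genes outside the Zscan4 cluster (Zscan2, Zscan18, Zscan20, Zscan21, Zscan22 and Zscan29) were followed by RNA-seq through the first cleavages of the mouse embryo. They were picked by name out of 15737 genes, and out of 17 whose symbol starts with Zscan, of which 9 carry a Zscan4 name and the remaining 1 is Zscan25. All values of the 7 genes had been seen when they were picked, so every level and difference given for them is a description without a test.

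The embryos came from superovulated ICR females and were cultured in vitro, and each library was made from 3 of them. The 18 RNA samples formed 9 groups with 2 libraries each. Untreated groups were early 2-cell embryos at 34 h, late 2-cell embryos at 48 h and 4-cell embryos at 58 h after injection of human chorionic gonadotropin (hCG). FK866, an inhibitor of the NAD+ salvage enzyme NAMPT, was given at 0.01 µM to late 2-cell and 4-cell groups, either alone or with 10 µM NMN, the product of that enzyme. Trichostatin A (TSA), an inhibitor of class I and II histone deacetylases, was given at 10 nM to a late 2-cell group. Groups are named by the stage of collection. The paper describes FK866 added to zygotes and TSA given from the early 2-cell to the 4-cell stage. In another late 2-cell group the NAD+-dependent deacetylase Sirt1 was knocked down by injecting zygotes with siRNA, Trim21 mRNA and an antibody to SIRT1, so that protein was degraded as well as mRNA. Control embryos are named as untreated in the labels, while the methods describe 0.05% DMSO and scrambled siRNA with Trim21 mRNA as negative controls. A library held whole embryos, so fewer cells with a transcript and less of it per cell cannot be told apart.

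Zscan genes encode zinc finger proteins with a SCAN domain, a leucine-rich segment through which family members pair with each other, followed by C2H2 zinc fingers that can contact DNA. In the mouse embryo the family is best known for the Zscan4 genes, which are transcribed in a burst when the embryonic genome is first activated at the 2-cell stage. The paper names Zscan5b among the genes of zygotic genome activation in its 2-cell module of genes and metabolites. Zscan21, also known as Zipro1, was described in the proliferation of cerebellar granule cell precursors, whereas the remaining genes are known mainly from their domains.

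The values were FPKM (fragments scaled to exon length and to the size of the library), with 1 column per group. Whole reads could be recovered from the steps in the values, which gave 2 libraries in 7 columns and 1 library in the column headed 4-cell FK866 and in that headed 4-cell FK866+NMN, 16 libraries in all with 3169677 to 10003481 reads. A column of 2 libraries held their sum, so all levels below are FPKM per library, and the library with more reads is named first. The headers of 4 columns gave the same group as the tables of the paper or were the only source for it, but the other 5 did not. All 47 values above 0 listed for 4-cell control embryos were equal to those in the column headed late 2-cell TSA. All 84 listed for 4-cell FK866 embryos were equal to those in the column headed late 2-cell Sirt1, and all 80 listed for 4-cell FK866+NMN embryos to those in the column headed 4-cell control. For the remaining groups only directions over late 2-cell control were listed: 1203 of 1203 TSA genes had that direction in the column headed 4-cell FK866. The same held for 773 of 821 Sirt1 genes in the column headed 4-cell FK866+NMN, against 546 TSA genes and 442 Sirt1 genes in the columns whose headers name those groups. Sirt1 itself was at 86.6 and 66.2 FPKM in late 2-cell controls, 32.4 and 73.1 FPKM in the column headed Sirt1 and 11.3 FPKM in the column headed 4-cell FK866+NMN. It was as low in groups without the knockdown, at 7.61 FPKM in the column headed 4-cell FK866 and 13.5 and 6.18 FPKM in early 2-cell embryos, so its level alone does not mark the knockdown. Both readings of these 5 columns are given throughout, by the headers and by the tables. Of 7 oocyte and early embryo markers in the table, all were above 0 in 8 columns and 5 in the column headed TSA, with sums of 42.2 to 1268 FPKM. The 6 cumulus and granulosa markers summed to between 0 and 8.39 FPKM.

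The 7 genes lie on 4 chromosomes of mm10, with 4 of them on chromosome 7. Zscan5b (ENSMUSG00000058028.14) spans chr7:6222278-6239423 on the plus strand and has 1980 bases of exon. Zscan18 (chr7:12768090-12803635, minus strand) and Zscan22 (chr7:12897815-12909083, plus strand) are neighbours 94.2 kb apart, at 1.15 and 1.28 Mb from the Zscan4 genes. Zscan5b is 4.55 Mb from them and Zscan2 (chr7:80860920-80876537, plus strand) 69.2 Mb. Zscan21 lies at chr5:138116903-138134265 on the plus strand, Zscan20 at chr4:128583539-128610098 on the minus strand and Zscan29 at chr2:121158273-121171125 on the minus strand, where its 5′ end overlaps Tubgcp4 on the opposite strand, so reads of the pair may not be separable. Zscan5b shared its longest stretch of similar transcript with Olfr1152, 1756 bases at 82.5% identity.

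Promoters of 6 of the 7 genes are in the RefSeq table (GRCm38.p6), all but that of Zscan5b. The promoters of Zscan20 and Zscan18 are printed because both genes had their highest level in the same column, headed 4-cell FK866, and that of Zscan21 because this gene had no read in 1 group. Each runs 5′ to 3′ up to the annotated start, and capitals mark motifs found on either strand, which were the cAMP response element TGACGTCA, the CCAAT box and the GC box, spelled out with their shares after the sequences.
Zscan20, chr4:128610099-128610348, minus strand: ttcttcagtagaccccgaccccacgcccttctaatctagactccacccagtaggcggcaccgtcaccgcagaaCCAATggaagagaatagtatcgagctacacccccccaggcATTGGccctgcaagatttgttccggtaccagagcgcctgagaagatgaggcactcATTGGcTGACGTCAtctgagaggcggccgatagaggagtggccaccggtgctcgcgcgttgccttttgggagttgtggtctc
Zscan18, chr7:12803639-12803888, minus strand: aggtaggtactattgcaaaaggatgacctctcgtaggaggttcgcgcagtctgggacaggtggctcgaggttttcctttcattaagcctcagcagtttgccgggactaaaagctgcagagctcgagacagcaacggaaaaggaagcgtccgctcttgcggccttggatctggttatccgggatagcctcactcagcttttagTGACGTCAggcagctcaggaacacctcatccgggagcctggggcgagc
Zscan21, chr5:138116655-138116894, plus strand: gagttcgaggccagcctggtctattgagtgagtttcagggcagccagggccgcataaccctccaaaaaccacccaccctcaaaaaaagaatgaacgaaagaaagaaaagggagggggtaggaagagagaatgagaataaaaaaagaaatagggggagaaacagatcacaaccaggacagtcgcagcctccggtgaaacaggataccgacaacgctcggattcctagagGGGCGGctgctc
The motifs were chosen after these sequences had been seen. Zscan20 and Zscan18 share TGACGTCA, 76 and 48 bases before the start, a motif in 1.55% of the 32851 promoters of the table. Zscan18 has 3 promoters in the table, and the 2 not printed hold a GC box and no TGACGTCA. Zscan20 also has 3 CCAAT boxes, found at least once in 33.8% of promoters, spelled as in their name. Zscan21 has a GC box 22 bases before its start, with the letters GGGCGG, which 32.7% of promoters hold. The stretch for Zscan21 has 240 bases because the 10 next to the start overlap an exon in GENCODE. None of the 9 annotated promoters of members held GGATTA, a site bound by homeobox proteins of the Obox kind and present in 6.25% of all promoters. Nor did any hold a reported binding site of Zscan4, the letters TGCACAC, which 3.67% of promoters hold. These are matches of letters only.

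Zscan5b was by far the most abundant of the 7 genes. It had reads in all 16 libraries, from 1.63 to 346 FPKM with a median of 196.3 FPKM. In late 2-cell controls only 115 of the 9981 genes above 0 were at a higher level. Zscan21 had reads in 14 libraries with a median of 11.0 FPKM, Zscan29 in 13 with 1.12 FPKM and Zscan20 in 11 with 0.117 FPKM. Zscan22, Zscan18 and Zscan2 were each without a read in most libraries, with reads in 5, 4 and 4 of the 16.

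Zscan5b separated the early 2-cell embryo from nearly all other groups. It was at 5.37 and 1.63 FPKM (60 and 15 reads) in early 2-cell embryos and at 346 and 222.4 FPKM (4473 and 1834 reads) in late 2-cell controls. No library of either group came near the other. With FK866 the late 2-cell libraries were at 222.1 and 186 FPKM, and with FK866+NMN at 132 and 142 FPKM. The column headed TSA held 207 and 158 FPKM, that headed Sirt1 346 and 122 FPKM and that headed 4-cell control 281 and 215 FPKM. All of these libraries lay far above the early 2-cell ones, and the FK866+NMN pair lay under the pairs of control, FK866, the column headed TSA and that headed 4-cell control. The single library headed 4-cell FK866 stood apart at 9.38 FPKM (87 reads, 95% exact Poisson interval 7.52 to 11.6 FPKM, counting error only), while that headed 4-cell FK866+NMN was at 209.7 FPKM. In the order of mean levels, each column from late 2-cell control down to the column headed TSA overlapped the next in its libraries. FK866+NMN, the column headed 4-cell FK866 and early 2-cell embryos came last, each without overlap with its neighbour in the order.

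**Figure D1:**
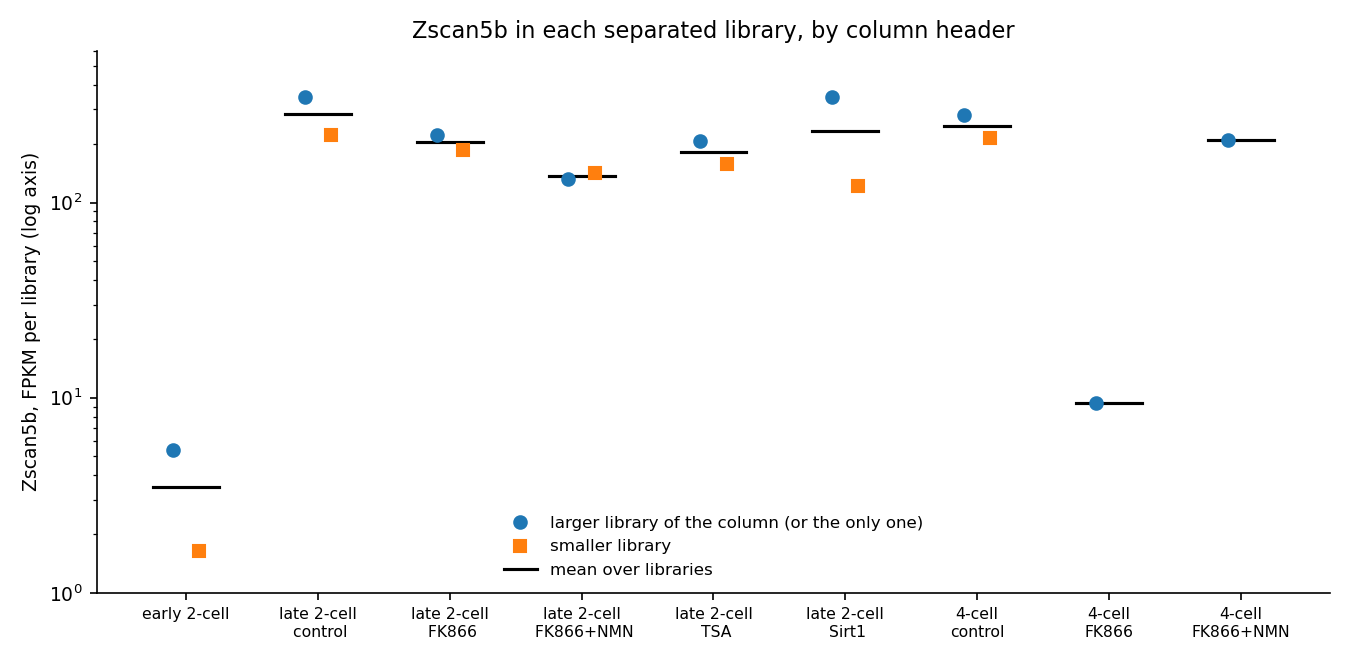
Zscan5b level in FPKM per library on a log axis, with columns named by their headers. Circles are the larger or only library of a column, squares the smaller one and lines the mean, and the early 2-cell libraries (5.37 and 1.63 FPKM) and the library headed 4-cell FK866 (9.38 FPKM) lie well under all others.

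Between the early and the late 2-cell stage, Zscan5b was the member that rose. Its level went from 3.50 ± 2.65 to 284.3 ± 87.6 FPKM (mean ± SD, n = 2 libraries), a log2 fold change of 5.99 on log2(FPKM per library + 1) with 5.13 to 7.04 over the 4 pairs of libraries. Only 12 of 9514 expressed genes (those that reached 1 FPKM per library in at least 1 of the columns compared) had a larger one. Of the 7 members 4 were expressed in this comparison, 1 rose by more than 2-fold and 1 fell, against 32.2% and 31.7% of all expressed genes. The gene that fell was Zscan20, at 1.50 and 1.85 FPKM in early and 0.0183 and 0.573 FPKM in late 2-cell embryos, with a log2 fold change of -1.05. Zscan21 did not pass 2-fold at -0.88, but both of its late libraries (21.4 and 10.1 FPKM) were under both early ones (32.9 and 26.6 FPKM). Zscan29 had overlapping libraries and a log2 fold change of 0.80. Counted by libraries that do not overlap, 1 member was above and 2 were below, against 31.1% and 33.4% of all genes.

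In the late 2-cell comparison of FK866 with control 3 of the 7 genes were expressed, and none of these passed 2-fold. Among all expressed genes 18.1% were past it upward and 20% downward. Zscan20 had a mean under 1 FPKM in both groups, with 0 and 1.35 FPKM under FK866 and 0.0183 and 0.573 FPKM in controls. Zscan18, Zscan2 and Zscan22 had no read in either group. Zscan5b had a log2 fold change of -0.48, and its 4 pairs of libraries ran from -0.90 to -0.0022. The libraries of the groups did not overlap, but the higher FK866 library (222.1 FPKM) was level with the lower control library (222.4 FPKM). Zscan21 libraries spread from 5.83 to 18.7 FPKM with FK866 and from 10.1 to 21.4 FPKM in controls. They overlapped, with a log2 fold change of -0.33. For Zscan29 the values were 2.32 and 0.944 FPKM with FK866 and 4.45 and 1.31 FPKM in controls, also overlapping, at -0.56. Zscan5b was thus the 1 member with both libraries under both controls, against 20.3% of genes, and no member was above them (16.6%).

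Addition of NMN to FK866 did not bring Zscan5b nearer to the control. Both FK866+NMN libraries (132 and 142 FPKM) were under both FK866 libraries, with a log2 fold change of -0.57 and pairs from -0.75 to -0.39. Against the late 2-cell control, which the FK866 comparison shares, the log2 fold change was -1.05 with pairs from -1.38 to -0.65, so that Zscan5b passed the 2-fold line only in this comparison of FK866-treated late 2-cell embryos. The median of all expressed genes was -0.35 in the same comparison. Of 3 expressed members 2 were more than 2-fold under the control and none over it, against 36.2% and 21% of expressed genes. The other was Zscan21. Both genes had their libraries under those of the control without overlap, against 28.2% of genes, and none lay above (10.6%). Zscan20, under 1 FPKM and so not counted, also lay below, at 0.0141 and 0 FPKM (1 and 0 reads) against 0.0183 and 0.573 FPKM (1 and 20 reads). The 0.0141 and 0.0183 FPKM are 1 read each, so their order rests on library size alone.

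Zscan21 had no read in either FK866+NMN library, with 0 of 8466640 and 0 of 5350013 reads, which allows up to 0.111 and 0.175 FPKM (3 reads). All 14 other libraries had Zscan21 reads, and the lowest of them were at 5.75, 5.83 and 6.14 FPKM. Set against the mean of these floors, it was at least 85.8-fold lower than the mean with FK866 alone (12.3 FPKM, libraries at 5.83 and 18.7 FPKM). It was at least 110.0-fold lower than the mean of late 2-cell controls (15.7 FPKM, libraries at 21.4 and 10.1 FPKM). These folds cover counting error and not the spread between libraries. On the log2(FPKM per library + 1) scale the differences were -3.73 and -4.07, which depend on the pseudocount. The FK866+NMN column as a whole had many such gaps: of its genes between 5 and 20 FPKM, 34.6% were at 0 in 1 of the 2 libraries, compared with 8.79% in late 2-cell controls and 8.49% with FK866. The part of these gaps in the Zscan21 value was not tested. Of 5 expressed SCAN genes outside the members and Zscan4, 3 were more than 2-fold lower than with FK866 and none higher, against 33.3% and 18.9% of expressed genes. They were Zkscan5 (2.76 against 19.1 FPKM), Scand1 (5.94 against 28.9 FPKM, libraries overlapping) and Zfp445 (0.0252 against 2.56 FPKM). Unlike Zscan21, Zkscan5 was as low in the columns headed TSA, Sirt1 and 4-cell control (2.50, 1.23 and 2.23 FPKM).

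Between FK866+NMN and FK866, 1 of 3 expressed members (Zscan29) was more than 2-fold higher and 1 (Zscan21) lower, against 18.9% and 33.3% of all expressed genes. The Zscan29 value rested on 1 library. It had 0 reads in the larger and 382 reads (9.96 FPKM) in the smaller FK866+NMN library, so its log2 fold change of 1.18 came with pairs from -1.73 to 2.50. Without the smaller library the value was -1.40. Zscan5b and Zscan21 were the 2 members with both libraries under both FK866 libraries, against 25.2% of genes, and none lay above, against 9.47%.

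TSA and Sirt1 knockdown gave different pictures of Zscan5b under the 2 readings of the columns. By the headers, TSA embryos (207 and 158 FPKM) were both under both controls with a log2 fold change of -0.64, not past 2-fold. By the tables, the TSA library is that with 9.38 FPKM, a log2 fold change of -4.78 that only 43 of 9420 expressed genes undercut, and 30.3-fold lower than the control mean. For Sirt1 knockdown the libraries headed Sirt1 (346 and 122 FPKM) surrounded the controls, with a log2 fold change of -0.28 and pairs from -1.50 to 0.64. By the tables the knockdown was at 209.7 FPKM, just under the lower control library (222.4 FPKM), at -0.44. Zscan5b thus passed 2-fold for TSA by the tables only and for Sirt1 knockdown in neither reading.

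Of the 7 members 3 were expressed under TSA by the headers, and 2 of them fell and none rose, against 41.3% and 23.2% of all expressed genes. Zscan21 fell to 5.75 and 7.62 FPKM (-1.12) and Zscan29 to 0.102 and 0.919 FPKM (-1.36), in both cases with each library under both controls. With Zscan5b this made 3 members under the controls without overlap and none above them, against 32.3% and 24.1% of genes. With the tables, 3 members, Zscan5b among them, fell and 2 rose among 5 expressed, against 29.7% and 30.1% of expressed genes. Zscan21 was at 6.14 FPKM (-1.23) and Zscan29 at 0.238 FPKM (-1.65), so these 2 genes were more than 2-fold under the control in both readings of TSA. Those that rose were Zscan20, at 3.90 FPKM (log2 fold change 1.92), and Zscan18, which had no read in either control library and was at least 46.7-fold higher with 6.47 FPKM. The library in question also had the highest sum of cumulus and granulosa markers (8.39 FPKM, with 4 of the 6 at 0), whose part was not tested. The same 5 members lay beyond both controls, against 43.5% of genes above and 31.1% below, with 1 library on the TSA side.

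Sirt1 knockdown by the headers gave 1 member that rose and none that fell among 4 expressed, against 24.3% and 36.6% of expressed genes. The gene was Zscan2, at 2.44 and 0.527 FPKM (73 and 5 reads) and without a read in either control library. Its mean of 1.48 FPKM was at least 7.52-fold higher. With the tables, 1 member rose and 1 fell among 4 expressed, against 16.4% and 28.2%. Zscan20 rose to 3.87 FPKM from 0.0183 and 0.573 FPKM. Zscan29 had 0 of 6907426 reads (up to 0.0606 FPKM), at least 47.5-fold lower than the control mean of 2.88 FPKM, by counting error only. Both values come from the 1 library of that column. Zscan29 also had no read in 1 library of FK866+NMN (0 and 382 reads) and 1 headed Sirt1 (0 and 49 reads). None of these genes passed 2-fold in the same direction in both readings of the knockdown. Without overlap with the controls, 1 expressed member lay above and none below by the headers (24.8% and 30.1% of genes), and 1 above and 2 below by the tables (32.2% and 33%). Zscan22, under 1 FPKM and so not counted, also lay above by the headers. It was at 0.514 and 0.541 FPKM (18 and 6 reads) against no read, at least 3.13-fold higher.

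In untreated 4-cell embryos Zscan5b did not pass 2-fold against late 2-cell controls whichever column was read. The 4-cell control had a log2 fold change of -0.20 over the late 2-cell control by the headers (281 and 215 FPKM, overlapping) and -0.64 by the tables (207 and 158 FPKM, both under both late 2-cell libraries). The latter is the same column as TSA by the headers, so its values recur here. In each reading 3 of the 7 members were expressed. By the headers none of these passed 2-fold, against 24.2% of expressed genes upward and 33.8% downward. Zscan18 and Zscan22 stayed under 1 FPKM but had no read in late 2-cell controls, and were at least 3.71-fold and 4.95-fold higher. The Zscan22 reads came from 1 library. By the tables, among the expressed members, Zscan21 (-1.12) and Zscan29 (-1.36) fell and none rose, against 41.3% and 23.2%. Zscan2 and Zscan22, again under 1 FPKM, were at least 4.54-fold and 3.58-fold higher, each with reads in 1 library only. No expressed member lay beyond the late 2-cell libraries without overlap by the headers, where 27.8% of genes lay above and 28.6% below. Zscan18, under 1 FPKM and so not counted, lay above there, at 0.471 and 0.556 FPKM against no read. Of the expressed members, 3 lay below and none above when read by the tables, against 32.3% and 24.1% of genes.

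The effect of FK866 at the 4-cell stage on Zscan5b depended on the reading. By the headers the single FK866 library at 9.38 FPKM lay far under both control libraries (281 and 215 FPKM), a log2 fold change of -4.58 with pairs from -4.76 to -4.38. By the tables FK866 is represented by 346 and 122 FPKM and the control by 207 and 158 FPKM, which overlap, and the log2 fold change was 0.36. By the headers 2 of 5 expressed members rose and 2 fell, against 41.8% and 32.9% of expressed genes. These were Zscan18 (6.47 FPKM against 0.471 and 0.556 FPKM) and Zscan20 (3.90 FPKM against 0.196 and 0 FPKM) upward, and Zscan5b and Zscan29 (0.238 FPKM against 5.27 and 1.71 FPKM) downward. By the tables none of 4 expressed members passed 2-fold, where 21.2% of expressed genes were past it upward and 13.4% downward. Beyond both control libraries lay 2 members upward and 3 downward by the headers, against 51.3% and 36.5% of genes, and 1 upward by the tables and none downward, against 21.2% and 15.3%. Zscan21 changed sides: by the headers it was under both controls (6.14 against 14.2 and 11.9 FPKM, log2 fold change -0.97), and by the tables above both (7.63 and 13.4 against 5.75 and 7.62 FPKM, 0.58).

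NMN added to FK866 at the 4-cell stage showed the same dependence. By the headers, which give 1 library per group and hence no spread, Zscan5b was at 209.7 FPKM with and 9.38 FPKM without NMN, a log2 fold change of 4.34, and Zscan21 at 13.9 and 6.14 FPKM (1.06). With these 2 members up and Zscan18 down from 6.47 FPKM to 0 reads, 2 of 4 expressed members were higher and 1 lower, against 25% and 34.7% of expressed genes. By the tables Zscan5b had overlapping libraries (281 and 215 FPKM with, 346 and 122 FPKM without NMN) and a log2 fold change of 0.084. There 1 member, Zscan29 (5.27 and 1.71 FPKM against 0 and 2.16 FPKM), was past 2-fold upward with overlapping libraries, and Zscan2 (0.061 and 0 FPKM against 2.44 and 0.527 FPKM) past it downward, against 14.8% and 11.5%. With 1 library on each side every gene with unequal values lies above or below. Of the 4 expressed members 2 lay above and 2 below by the headers, against 43.8% and 56.2%. Zscan29, under 1 FPKM and so not counted, also lay below, with no read against 0.238 FPKM. By the tables none of the 4 expressed members lay above and 1 lay below without overlap, against 18.9% and 14.4%. Zscan18, under 1 FPKM and so not counted, lay above there, at 0.471 and 0.556 FPKM against no read.

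**Figure D2:**
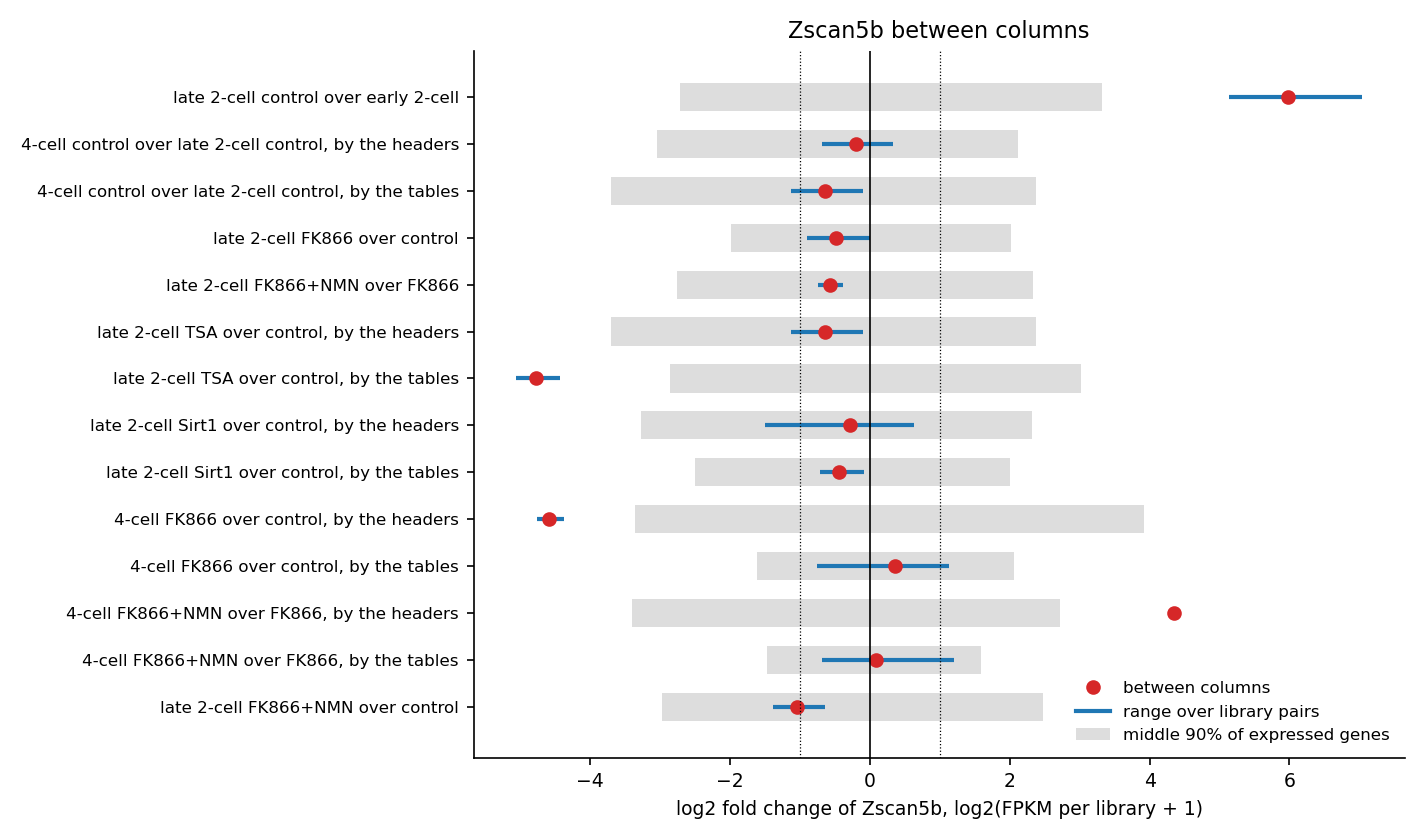
Log2 fold change of Zscan5b between columns on log2(FPKM per library + 1), under both readings of the columns. Points are the values between columns, blue lines the range over pairs of libraries, grey bars the middle 90% of expressed genes and dotted lines 2-fold, and 4 points lie outside the grey bars: 5.99, -4.78, -4.58 and 4.34.

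Across the 9 columns Zscan21 was the only other member with a level above 5 FPKM in most of them. After early 2-cell embryos (32.9 and 26.6 FPKM) it was highest in late 2-cell controls and lowest in FK866+NMN, where it was listed at 0. The libraries headed Sirt1 (7.63 and 13.4 FPKM), 4-cell control (14.2 and 11.9 FPKM) and 4-cell FK866+NMN (13.9 FPKM) overlapped those of late 2-cell controls and of FK866. Zscan21 thus stood out at both ends: early 2-cell embryos above and FK866+NMN below all other columns, without overlap.

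Zscan29, whose protein has Myb-like segments beside its zinc fingers, was low in every group, and its libraries overlapped between most columns next to each other in the order of levels. In 5 of the 7 columns with 2 libraries its libraries differed more than 2-fold without a zero, among them 0.297 and 2.16 FPKM in early 2-cell embryos, and in the other 2 columns 1 library was at 0. Its largest level was the 9.96 FPKM of 1 FK866+NMN library, whose partner had no read.

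Zscan20 had its highest levels in the 2 single libraries, at 3.90 FPKM (153 reads) in the column headed 4-cell FK866 and 3.87 FPKM (224 reads) in that headed 4-cell FK866+NMN. Early 2-cell libraries followed at 1.50 and 1.85 FPKM, and these 3 columns did not overlap any other. In the remaining 6 columns no library exceeded 1.35 FPKM, and in 5 of them 1 library was at 0 and the other was not. By the tables the 2 single libraries are TSA and Sirt1 knockdown at the late 2-cell stage, whose control held 0.0183 and 0.573 FPKM.

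Zscan18 had most of its 158 reads in 1 library. It had 129 reads (6.47 FPKM, 95% exact Poisson interval 5.40 to 7.68 FPKM) in the column headed 4-cell FK866, 11 and 11 reads in the column headed 4-cell control (0.471 and 0.556 FPKM) and 7 reads in 1 early 2-cell library. It was at 0 in the other 12 libraries, which allows at most between 0.0704 and 0.222 FPKM in each. Its neighbour Zscan22 had no read in the column headed 4-cell FK866, where Zscan18 was highest. Zscan22 had 11 reads in 1 early 2-cell library, 29 in 1 library headed TSA, 18 and 6 in those headed Sirt1 and 32 in 1 headed 4-cell control, and did not exceed 1.67 FPKM. Zscan2 was seen in the columns headed TSA (0 and 35 reads), Sirt1 (73 and 5 reads) and 4-cell control (1 and 0 reads) and nowhere else. Zscan2 was therefore at 0 in every early and late 2-cell library whose column both readings name alike, while the 3 columns that held it are all 4-cell columns by the tables.

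**Figure D3:**
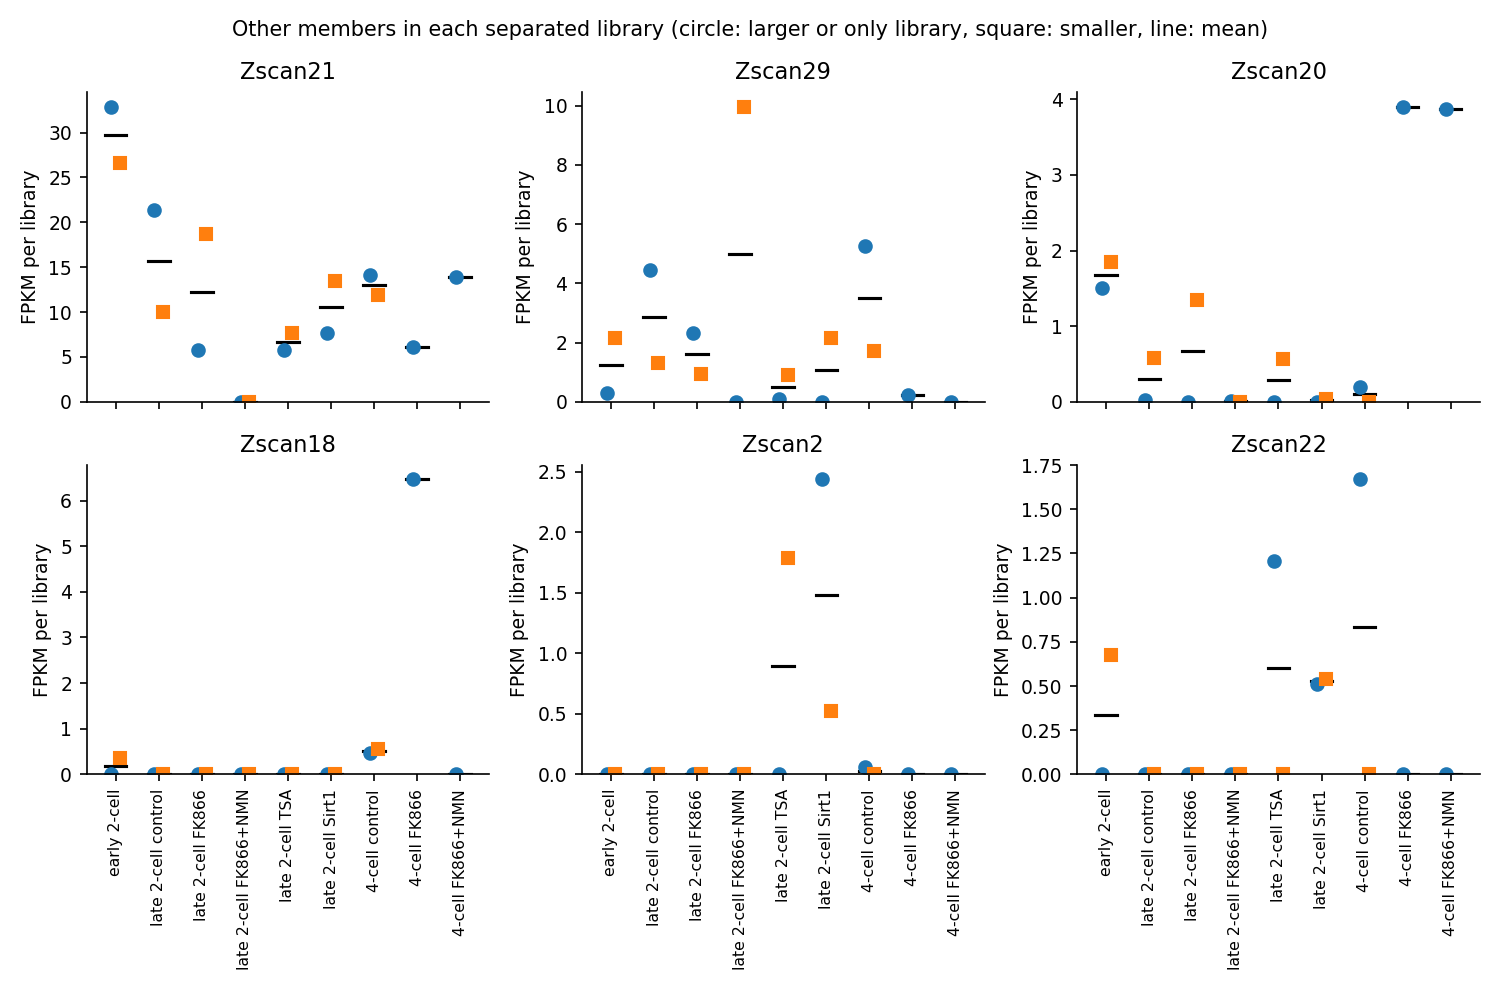
FPKM per library of the 6 other members on linear axes of different height, with columns named by their headers. Zscan21 is highest in early 2-cell embryos and at 0 in FK866+NMN, Zscan20 and Zscan18 peak in single libraries (3.90 and 6.47 FPKM), and Zscan29, Zscan2 and Zscan22 differ between libraries of a column.

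The other genes of the SCAN family were taken as a list of 38 genes, of which 19 were in the table, 6 Zscan4 and 13 further genes. All 6 Zscan4 genes rose by more than 2-fold from early to late 2-cell controls, against 32.2% of all expressed genes. Their median log2 fold change was 1.60, while Zscan5b rose by 5.99. Thereafter Zscan4 levels and Zscan5b went apart: Zscan4d was at 125 FPKM in late 2-cell controls and 3.63, 4.01 and 10.4 FPKM in the columns headed TSA, Sirt1 and 4-cell control, where Zscan5b was at 183, 234 and 248.1 FPKM. By the tables these are the 3 groups of 4-cell embryos. The library in which Zscan5b was at 9.38 FPKM held 47.3 FPKM of Zscan4d. Among the 13 further SCAN genes 6 were expressed in early or late 2-cell controls. Of these 1 was past 2-fold upward (Scand1, 12.1 to 60.0 FPKM, libraries overlapping) and 1 downward (Zkscan16, 2.74 to 0 FPKM), against 32.2% and 31.7% of all expressed genes. With FK866, 2 of 5 expressed ones fell past 2-fold and none rose, against 20% and 18.1% of all expressed genes. Those that fell were Zkscan14 (8.82 to 3.70 FPKM) and Scand1 (60.0 to 28.9 FPKM), both with overlapping libraries. Zscan25, the remaining non-Zscan4 gene of the Zscan name, had reads only in the columns headed Sirt1 (194 and 7 reads) and 4-cell control (9 and 36 reads), 2 of the 3 columns that held Zscan2.

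Over the 9 columns, the genes whose pattern was most like that of Zscan5b were sought among 5904 genes of at least 10 FPKM per library in any column, by Pearson's r of log2(FPKM per library + 1). They were Kdm5b, a demethylase of histone H3 lysine 4 (r = 0.99), Uspl1, Tor1aip2, Enoph1 and Gtpbp3, a mitochondrial tRNA-modifying GTPase (0.98 each). Kdm5b was at 0.540 FPKM in early 2-cell embryos, 30.6 FPKM in late 2-cell controls and 2.27 FPKM in the column headed 4-cell FK866, and between 18.9 and 33.0 FPKM in the other columns. All of these genes have the same 2 low points, so these coefficients describe a shape that is set largely by the column headed 4-cell FK866 and by early 2-cell embryos. None of the 5 genes was among the first 5 by Spearman's coefficient, where Sprtn led (rho = 1), nor over the 7 columns with 2 libraries, where Gpx1 led (r = 1.00). For Zscan21 the nearest gene was Dsn1, a kinetochore component (r = 0.98), which was at 71.4 FPKM in early 2-cell embryos and 0.0352 FPKM in FK866+NMN. For Zscan18 it was Gprc5b (r = 1.00), at 11.0 FPKM in the column headed 4-cell FK866 and at most 0.675 FPKM elsewhere. Between members the 21 pairs had r from -0.75 (Zscan29 and Zscan20) to 0.57 (Zscan2 and Zscan22), and Zscan5b with the 6 others from -0.57 to 0.29.

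**Figure D4:**
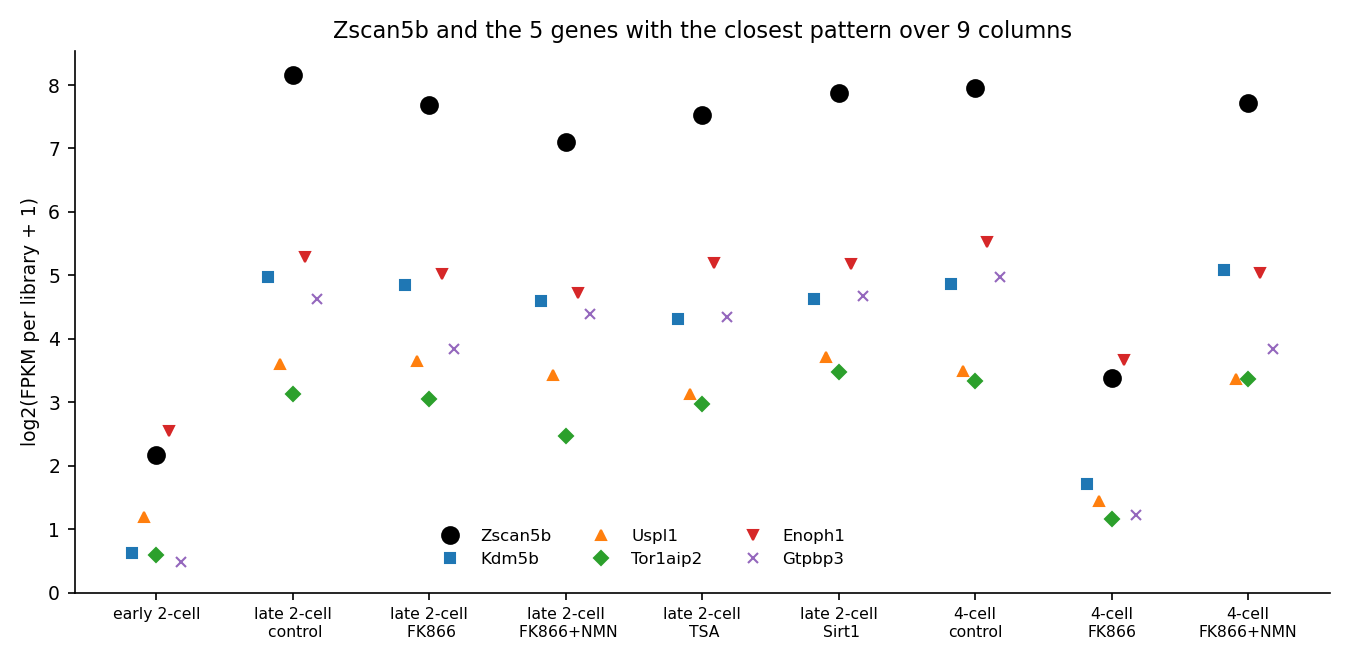
Zscan5b and the 5 genes with the highest Pearson r over 9 columns, as log2(FPKM per library + 1) with columns named by their headers. All 6 genes are low in the column headed 4-cell FK866 and in early 2-cell embryos, and Zscan5b lies above the others in the remaining 7 columns.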

How the data were processed

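RNA-seq of mouse embryos was used (18 samples in 9 groups), and the 24 CUT&Tag samples were not analysed here. Per the labels and methods, the authors ran Trim Galore, HISAT2 (on mm10) and featureCounts and turned the counts into FPKM; the submitters' processing notes also name CASAVA 1.4. The deposited table, although named as counts, holds FPKM with 1 column per group. Reads of single libraries could be recovered from it, but the members had been chosen with their values known, so no test was run on them and no p-value was computed. Whether counting used strand is not given in the sources used here.

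From the table, 15747 of 15748 lines were complete, covering chromosomes 1 to 10 and a part of 11. Symbols listed once numbered 15737, of which 15380 had an exon length in GENCODE M21. A value times the exon length is a whole multiple of a step for each library, which gave the library totals and the reads of each library (relative tolerance 1e-09). From 97.63% to 97.84% of tested values per column fell on whole reads. Libraries carry no replicate number. This step and the fold changes were tested on simulated data. Unused columns of per-sample values numbered 0. Depth was 3169677 to 10003481 reads per library, and a gene with no read can be at up to 3 reads. Intervals and floors cover counting error only, because reads carry no molecular identifiers. Nothing says whether the 2 libraries of a group came from separate females.

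Fold changes are differences of log2(FPKM per library + 1), which understate changes of low genes, over genes that reached 1 FPKM per library in at least 1 of the columns compared, and counted past an absolute value of 1. Columns were read by their headers, and 5 of 9 also by the tables of the paper, whose values were compared with the columns only to find which group they hold. For each member with a group at 0 the fold was the mean of the other group over the mean floor of the libraries at 0. Such a fold does not cover the spread between libraries. The 7 members, the SCAN list, the markers and the rule for most-like genes (5 for Zscan5b, 3 for members of at least 5 FPKM in any column) were chosen with earlier results of these data known. Alternatives were the tables' reading, pseudocounts of 0.1 and 5, column values left undivided, centring, a minimum of 5 FPKM, no filter, leaving out each library, and Spearman's coefficient. Non-overlap of libraries and likeness over columns with 2 libraries only were added after seeing the data. Counts of members, and the shares of genes beside them, cover only those that reached 1 FPKM per library in a column compared. Transcripts were compared with BLAST 2.17.0+ over at least 100 bases. Promoters come from RefSeq on GRCm38.p6. Software was pandas 2.3.3 and numpy 2.4.6 under Python 3.11.15, with matplotlib 3.10.9 for plots and scipy 1.17.1 for intervals.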

Additional observations from a re-analysis of the deposited data

Results flagged for a closer look

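The response to NMN added to FK866 had opposite signs at the 2 stages for 2 members when columns are read by their headers. Zscan5b had a log2 fold change of -0.57 in late 2-cell and 4.34 in 4-cell embryos, and Zscan21 of -3.73 and 1.06. In both cases every pair of libraries had the sign of its stage, but the 4-cell value rests on 1 library per group. The difference between stages was not tested. By the tables the 4-cell values were 0.084 for Zscan5b and 0.28 for Zscan21, with overlapping libraries for both genes.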

How the results depend on the processing

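Values are log2 fold changes. Of 66 alternative values for Zscan5b, 60 stayed within the spread between libraries, 5 moved further and 1 turned a value that was past 2-fold, and of 396 for the other members 331, 61 and 4. Counting values not past 2-fold as well, the sign changed in 4 and 25 of these, of which 3 and 14 came from leaving out a library. The number of members past 2-fold moved by over 1.5 times in 19 of 64 alternatives. Reading the columns by the tables moved Zscan5b to -4.78 for TSA over control, to 0.36 for 4-cell FK866 over control, which turned the sign, and to 0.084 for 4-cell FK866+NMN over FK866. It turned 10 values of other members. These include 4-cell FK866 over control for Zscan29 (0.46), Zscan20 (-0.33) and Zscan21 (0.58), 4-cell over late 2-cell control for Zscan29 (-1.36), TSA and Sirt1 over control for Zscan20 (1.92 and 1.91) and 4-cell FK866+NMN over FK866 for Zscan18 (0.60). A pseudocount of 5 gave Zscan5b -4.14 and 3.90 for 4-cell FK866 over control and 4-cell FK866+NMN over FK866, and column values left undivided -5.58 in the first. Leaving out each library in turn gave Zscan5b 5.48 to 6.76 for late over early 2-cell, -0.48 to 0.16 for 4-cell over late 2-cell control, -0.76 to -0.13 for FK866, -0.69 to -0.44 for FK866+NMN over FK866, -0.92 to -0.28 for TSA, -1.21 to 0.28 for Sirt1 and -4.76 to -4.38 for 4-cell FK866. For Zscan29 in FK866+NMN over FK866 it gave -1.40, without the smaller FK866+NMN library, to 2.06. No paired analysis was possible because the separated libraries carry no replicate number. At 3 reads the floor was 0.0358 to 0.478 FPKM for the members.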
